A study of Mus musculus with 12 samples.

Results

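YAP (Yap1), TAZ (Wwtr1), the 4 TEAD DNA-binding factors (Tead1, Tead2, Tead3 and Tead4) and 4 of their best known target genes (Cyr61, Ctgf, Ankrd1 and Amotl2) were followed in murine hepatoblastoma (HB) cells before and after hypoxia and cell sorting. These 10 genes were chosen by name from the 45706 genes in the expression table, and all 10 were among the 18909 genes tested, which had a mean level of at least 0.1 TPM (a unit corrected for transcript length and for the total of each library). BN1 cells came from a tumor driven by mutant β-catenin (B) and NRF2 (N) in which the Cdkn2a locus had been targeted with Crispr, and all 4 groups carry these alterations together with an EGFP reporter under the promoter of Tie2, an endothelial receptor. No YAP (Y) vector was used to make this line. RNA was sequenced from 12 libraries, 3 for each group. UN cells were unsorted and normoxic (21% O2), and UH cells were unsorted cells held in 1% O2 for 2 days. SN cells were EGFP+ cells sorted after 2 days of hypoxia and grown for about 10 days in normoxia, and SH cells were made by placing SN cells in 1% O2 again for 2 days. All groups therefore represent a single cell line, and the sorted groups descend from the brightest EGFP+ cells of a hypoxic culture, so that sorting cannot be told apart from an earlier hypoxic episode and expansion.

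YAP and TAZ are transcriptional co-activators without a DNA-binding domain of their own. In the Hippo pathway, the kinases STK3 and STK4 activate LATS1 and LATS2, which phosphorylate YAP and TAZ and keep them in the cytoplasm. When this phosphorylation falls, YAP and TAZ enter the nucleus, bind TEAD factors and drive genes of adhesion, matrix and growth. In the liver, YAP is best known for its control of organ size, for the balance between biliary and hepatocyte fates and as an oncogene in HB. Because the co-activators are regulated largely through phosphorylation and location, transcript levels describe only how much of each mRNA was present.

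The libraries were first examined for the cell types they could hold. Of 10 hepatocyte markers, between 2 and 4 reached a mean of 1 TPM in any group. Alb was between 0 and 4.23 TPM, with group means of 2.51, 1.89, 0.21 and 0.32 TPM in UN, UH, SN and SH cells. Hnf4a had means of 3.85, 0.16, 0.26 and 0.11 TPM in the same order, also lower in sorted than in UN cells. Ass1 (31.3, 43.1, 89.7 and 126 TPM) and Trf (2.17, 4.50, 47.2 and 46.5 TPM) went the other way. Of 12 endothelial markers between 1 and 4 reached a mean of 1 TPM. Cdh5, Tie1 and Cldn5 were at or near 0 in every library, Esam had means of 0.80, 0.84, 2.09 and 7.24 TPM, Plvap of 0.16, 1.57, 1.34 and 4.13 TPM, Vwf of 0.27, 0.23, 0.10 and 1.26 TPM and Egfl7 of 10.4, 7.35, 1.91 and 2.55 TPM in the same order. Of 10 immune markers 2 or 3 reached 1 TPM. Ptprc and Adgre1 were at or near 0, while Cd68 had means of 3.09, 13.4, 7.88 and 53.9 TPM and Csf1r of 2.91, 7.21, 3.55 and 5.83 TPM. The part of these markers in the results was not tested. Fibroblast markers differed most, their sum being 1499 to 5461 TPM in UN, 5240.5 to 7552 TPM in UH, 206 to 218 TPM in SN and 59.1 to 75.3 TPM in SH cells. UN replicate 1 stood apart within its group, with 1960 TPM of Col3a1 against 222 and 173 TPM in the other UN libraries. Mitochondrially encoded transcripts made up 5.18% to 8.38% of all TPM in the normoxic and 1.67% to 4.68% in the hypoxic libraries. Cdkn2a transcript, which does not test the editing of its coding sequence, was 196 to 327 TPM in UN, 66.4 to 78.7 TPM in UH, 10.4 to 16.5 TPM in SN and 7.37 to 9.32 TPM in SH cells. The depth of the libraries is unknown, since TPM sum to the same total in each, and precision was judged from the spread between replicates. Genes above 0 TPM numbered 19721 to 20251 in UN, 18939 to 19553 in UH and 18901 to 20241 in SN libraries. In SH libraries they numbered 21666 to 22369. The part of this difference in the low values of SH cells was not tested.

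**Figure D1:**
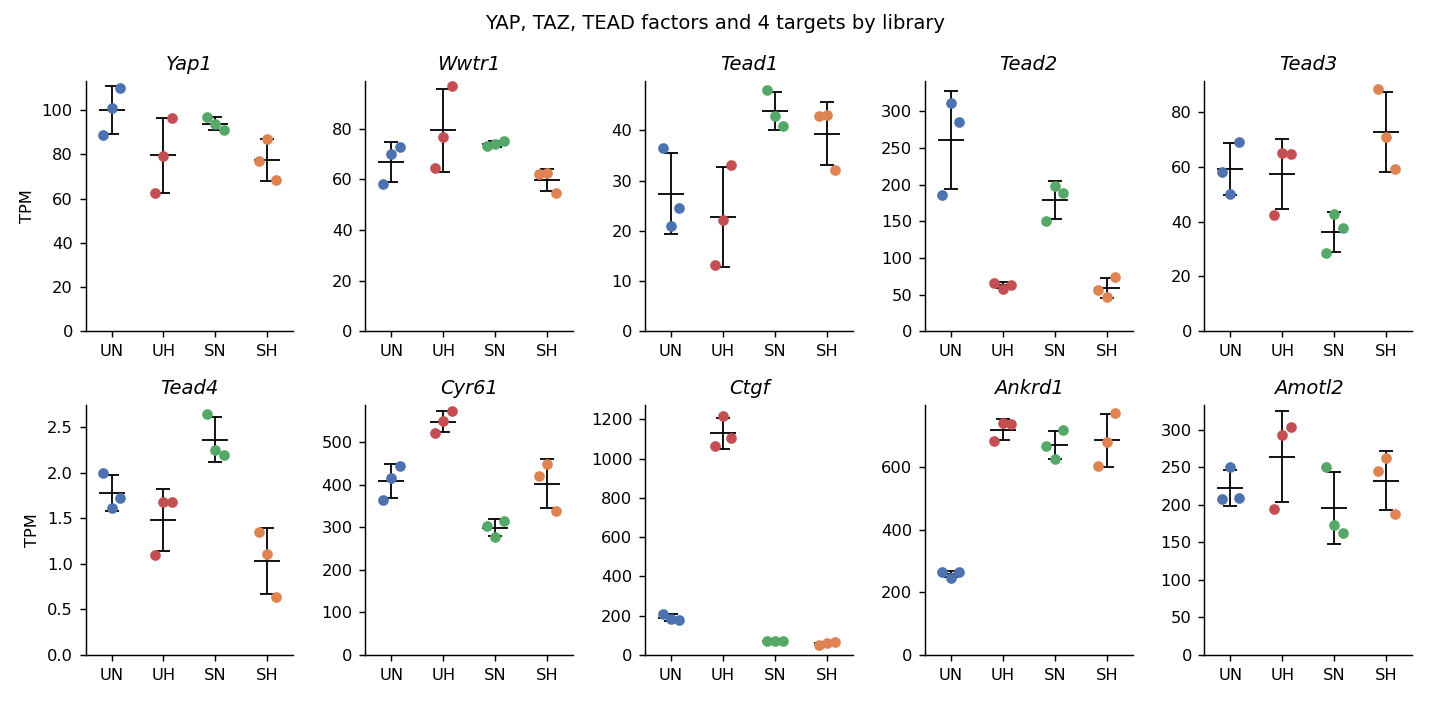
TPM of the 10 genes in each of the 12 libraries (points), with the mean (long bar) and SD (whiskers) of each group of 3. Ctgf was at 1063 TPM or more in every UH library and at 71.996 TPM or less in every sorted library, Ankrd1 was low only in UN cells, and Tead2 was low in both hypoxic groups.

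Yap1 (ENSMUSG00000053110, chr9:7931999-8004596, minus strand, GRCm38) encodes YAP. Its level was 88.7, 101 and 110.3 TPM in UN, 62.8, 79.2 and 96.7 TPM in UH, 97.0, 93.7 and 91.2 TPM in SN and 77.1, 87.2 and 68.3 TPM in SH cells. Libraries of UH and UN cells overlapped, whereas all 3 SH libraries were below all 3 SN libraries. The log2 fold change was -0.34 (95% CI -0.67 to -0.02, adjusted p = 0.0787, limma over all genes tested) in UH vs UN cells and -0.28 (95% CI -0.60 to 0.04, adjusted p = 0.156) in SH vs SN cells. These intervals lie within a 2-fold difference in either direction. The UH vs UN value passed the adjusted p without UN replicate 1 (-0.43, adjusted p = 0.0495), without UH replicate 3 (-0.49, adjusted p = 0.0132) and with scaling that left out mitochondrially encoded genes (-0.40, adjusted p = 0.0390), and the SH vs SN value did so with median-of-ratios scaling (-0.27, adjusted p = 0.0445). Sorting made still less difference, the log2 fold change being -0.08 in SN vs UN cells and -0.02 for SH vs UH. Yap1 varied the least of the 10 genes, by 1.29-fold between its highest and lowest group mean, and no neighbors in its order of levels (SH, UH, SN, UN from the lowest) differed by the test.

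Wwtr1 (ENSMUSG00000027803, chr3:57455649-57575910, minus strand) encodes TAZ, the paralog of YAP. It was 58.0, 70.1 and 72.8 TPM in UN, 64.4, 76.8 and 96.7 TPM in UH, 72.9, 73.9 and 75.0 TPM in SN and 61.9, 62.3 and 54.6 TPM in SH cells. All SH libraries were below all UH and all SN libraries, and the UH libraries had a wide spread that took in most UN values. The log2 fold change was 0.23 (95% CI -0.07 to 0.53, adjusted p = 0.205) in UH vs UN and -0.31 (95% CI -0.61 to -0.01, adjusted p = 0.0963) in SH vs SN cells. As deposited, only the comparison of SH with UH cells passed the adjusted p (-0.39, adjusted p = 0.0408), and it was under the 2-fold limit. The UH vs UN value depended on scaling and also passed the adjusted p with median-of-ratios scaling (0.58, adjusted p = 2.88e-04), with quantile normalization (0.46, adjusted p = 0.00334) and without UH replicate 1 (0.37, adjusted p = 0.0379), each under 2-fold. Group means of Wwtr1 spanned 1.33-fold.

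The proportion of the 2 co-activator transcripts does not change when each library is scaled by a single factor, which quantile normalization does not do. The ratio of Yap1 to Wwtr1 was 1.53, 1.44 and 1.52 in UN, 0.97, 1.03 and 1.00 in UH, 1.33, 1.27 and 1.22 in SN and 1.24, 1.40 and 1.25 in SH libraries. No UH library overlapped with any other group, no UN library overlapped with any other group, and the sorted groups overlapped with each other. Yap1 thus made up 59.9% ± 0.78 (SD, n = 3) of the pair in UN, 50.0% ± 0.72 in UH, 55.9% ± 1.11 in SN and 56.4% ± 1.64 in SH cells. The sum of both was 167 ± 18.5 TPM in UN, 159 ± 33.2 TPM in UH, 168 ± 1.84 TPM in SN and 137 ± 13.4 TPM in SH cells, with overlap between the UN and UH libraries.

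Tead2 (ENSMUSG00000030796, chr7:45215753-45233644, plus strand), a TEAD factor typical of embryonic tissue, was the most abundant TEAD transcript in normoxia and was called in both hypoxia comparisons. It was 186, 312 and 285 TPM in UN, 65.8, 58.0 and 63.7 TPM in UH, 150.2, 199 and 189 TPM in SN and 55.7, 47.1 and 73.6 TPM in SH cells. Each hypoxic library was below each normoxic library, whether sorted or not. Tead2 fell by 2.01 on the log2 scale in UH vs UN cells (SE 0.20, adjusted p = 9.79e-06) and by 1.61 in SH vs SN cells (SE 0.20, adjusted p = 7.87e-05), and these 2 responses could not be told apart (difference 0.41, 95% CI -0.22 to 1.03, adjusted p = 0.328). By mean TPM it was 4.18-fold lower in UH than in UN cells and 3.05-fold lower in SH than in SN cells. The 2 normoxic groups overlapped (-0.51 in SN vs UN, adjusted p = 0.0697), as did the 2 hypoxic groups (-0.11 in SH vs UH, adjusted p = 0.695). In these bulk libraries, fewer cells that contain a transcript and less of it per cell cannot be told apart.

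Tead3 (ENSMUSG00000002249, chr17:28331671-28350817, minus strand), a TEAD factor known from placenta, was 58.3, 50.1 and 69.1 TPM in UN, 42.5, 64.9 and 64.5 TPM in UH, 28.4, 42.9 and 37.6 TPM in SN and 88.3, 70.9 and 59.1 TPM in SH cells. Unsorted libraries overlapped, and every SH library was above every SN library. The SH vs SN difference was 0.98 (SE 0.21, adjusted p = 0.00286), just under the 2-fold limit on the log2(TPM + 1) scale although the mean TPM differed by 2.00-fold. In UH vs UN cells it was -0.06 (95% CI -0.52 to 0.40, adjusted p = 0.853). The difference between these 2 responses passed the test (1.04, SE 0.30, adjusted p = 0.0276), but it did not with median-of-ratios scaling (0.71, adjusted p = 0.0721) or without UN replicate 3, UH replicate 1, SN replicate 1, SH replicate 1 or SH replicate 2 (0.84 to 1.05, adjusted p 0.0522 to 0.0707), and with quantile normalization it was under the 2-fold limit (0.88).

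Tead1 (ENSMUSG00000055320, chr7:112679318-112906807, plus strand), a TEAD factor of heart and many other tissues, was 36.4, 21.01 and 24.6 TPM in UN, 13.2, 22.1 and 33.1 TPM in UH, 48.0, 42.9 and 40.8 TPM in SN and 42.8, 43.0 and 32.1 TPM in SH cells. All SN libraries were above all unsorted libraries. Hypoxia gave overlapping groups in both settings (-0.30, 95% CI -0.92 to 0.31 in UH vs UN, and -0.16, 95% CI -0.78 to 0.45 in SH vs SN). In sorted compared with unsorted cells, the log2 fold change was 0.70 in normoxia (adjusted p = 0.0758) and 0.84 in hypoxia (adjusted p = 0.0309). Tead4 (ENSMUSG00000030353, chr6:128224288-128300823, minus strand), best known from the trophoblast of the early embryo, was near the lower end of detection at 1.61 to 2.00 TPM in UN, 1.09 to 1.68 TPM in UH, 2.19 to 2.64 TPM in SN and 0.64 to 1.35 TPM in SH cells. All SH libraries were below all SN libraries (-0.74, SE 0.17, adjusted p = 0.00387), again under the 2-fold limit, and a pseudocount of 0.1 in place of 1 gave -1.17.

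Since TPM are corrected for length, the 4 TEAD levels can be added. Their sum was 349 ± 57.8 TPM (SD, n = 3) in UN, 144 ± 20.3 TPM in UH, 262 ± 29.4 TPM in SN and 172 ± 14.2 TPM in SH cells, and each hypoxic library was below each normoxic library. Tead2 made up 73.9% ± 7.70 of the sum in UN and 68.3% ± 2.47 in SN cells, but 44.1% ± 8.31 in UH and 34.4% ± 8.75 in SH cells. Tead3 made up 17.3% ± 3.87 and 13.8% ± 1.30 in the normoxic groups (UN and SN) and 39.5% ± 4.797 and 42.1% ± 5.77 in the hypoxic groups (UH and SH). The ratio of Tead2 to Tead3 was between 3.19 and 6.22 in normoxic and between 0.631 and 1.55 in hypoxic libraries, without overlap.

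**Figure D2:**
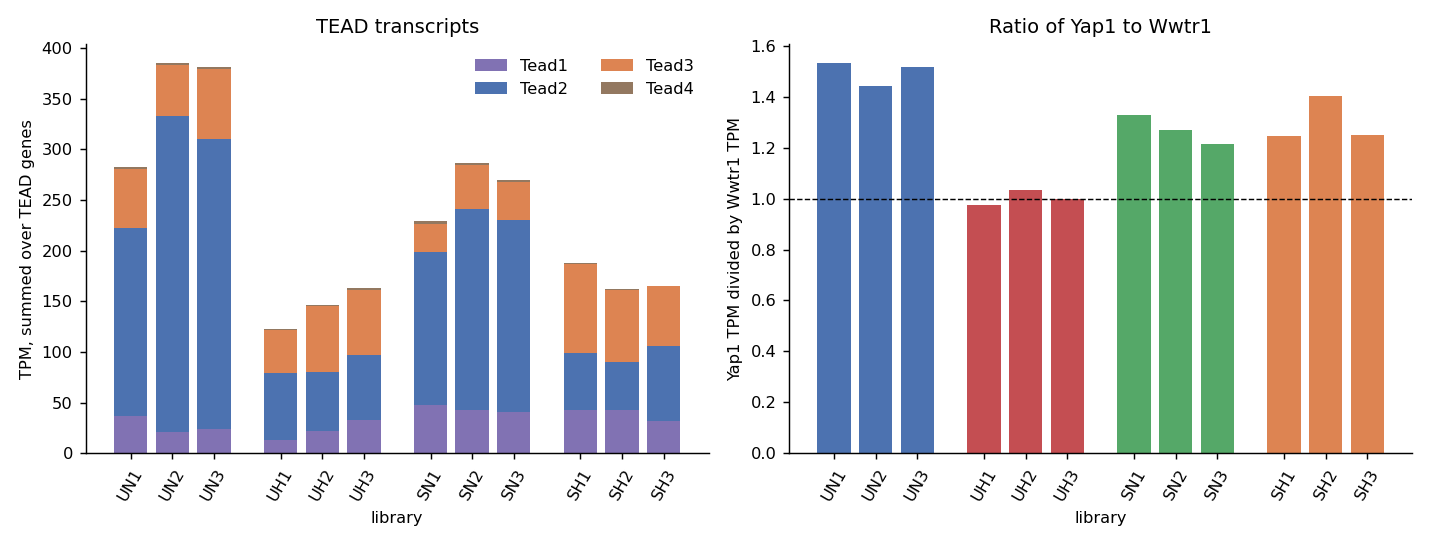
Left, TPM of Tead1 to Tead4 stacked for each library. Right, Yap1 TPM divided by Wwtr1 TPM in each library, with a dashed line at 1. The Tead2 segment was 150.2 TPM or more in the 6 normoxic libraries and 73.6 TPM or less in the 6 hypoxic libraries, and the ratio was near 1.00 only in UH libraries.

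The target genes of YAP and TAZ are often read together as a sign of YAP activity. To give their regulatory context, RefSeq promoter windows (GRCm38.p6) of 250 bases before the annotated start were searched on both strands for the TEAD motif CATTCC. Windows were found for 7 of the 10 genes, but not for Ctgf, Tead1 or Tead4. Of the 7, 6 (Yap1, Wwtr1, Tead3, Cyr61, Ankrd1 and Amotl2, but not Tead2) held the motif in at least 1 window. Over all genes 12.6% of 32851 windows of the same length held it. That share is per window and the count is per gene, so the 2 are not alike. Cyr61, Ankrd1 and Amotl2 were also chosen as known targets, so the count is not a test of enrichment. Wwtr1 has 2 promoter windows, which overlap, and Tead3 has 3. The promoters of 3 targets are shown because they are the genes by which YAP activity is usually read, and that of Tead2 because it was the factor that fell in hypoxia. Capitals mark the TEAD motif. The windows are chr3:145649986-145650235 (Cyr61, minus strand, motif 103 bases before the start), chr19:36119845-36120094 (Ankrd1, minus strand, motifs 210 and 123 bases before the start), chr9:102717554-102717803 (Amotl2, plus strand, motif 65 bases before the start) and chr7:45215542-45215791 (Tead2, plus strand, no motif).
Cyr61: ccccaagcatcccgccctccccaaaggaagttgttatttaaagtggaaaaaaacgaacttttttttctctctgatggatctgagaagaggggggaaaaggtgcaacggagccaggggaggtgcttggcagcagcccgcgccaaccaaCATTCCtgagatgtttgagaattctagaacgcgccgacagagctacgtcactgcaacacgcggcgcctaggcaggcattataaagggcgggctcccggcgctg
Ankrd1: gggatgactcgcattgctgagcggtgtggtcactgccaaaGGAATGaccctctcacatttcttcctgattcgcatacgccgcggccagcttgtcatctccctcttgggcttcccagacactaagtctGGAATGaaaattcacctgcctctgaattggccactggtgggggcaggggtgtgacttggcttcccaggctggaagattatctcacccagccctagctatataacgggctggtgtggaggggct
Amotl2: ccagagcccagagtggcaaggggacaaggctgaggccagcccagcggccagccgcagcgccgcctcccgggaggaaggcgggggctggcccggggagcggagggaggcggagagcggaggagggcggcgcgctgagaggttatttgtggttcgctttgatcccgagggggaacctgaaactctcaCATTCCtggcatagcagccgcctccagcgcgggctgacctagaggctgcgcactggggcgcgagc
Tead2: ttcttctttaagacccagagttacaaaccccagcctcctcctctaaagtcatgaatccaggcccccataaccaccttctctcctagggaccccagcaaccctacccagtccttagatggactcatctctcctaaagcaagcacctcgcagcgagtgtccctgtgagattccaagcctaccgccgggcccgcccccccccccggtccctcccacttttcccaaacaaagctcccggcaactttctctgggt
The core of the hypoxia response element, ACGTG, searched on both strands, was found in 1 of the 7 genes (Yap1, where it reads on both strands at the same place), against 16.6% of all windows. The AP-1 motif TGANTCA, which often lies beside TEAD sites, was found in 0 of the 7, against 6.75% of all windows. Here too the counts are per gene and the shares per window. A match is only a run of letters and not a bound site.

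Ctgf (ENSMUSG00000019997, chr10:24595442-24598683, plus strand), a secreted matricellular protein of the CCN family that promotes fibrosis, spanned the widest range. It was 209.7, 181 and 176 TPM in UN, 1063, 1216 and 1104 TPM in UH, 71.996, 69.4 and 68.7 TPM in SN and 50.7, 59.2 and 65.9 TPM in SH cells. None of the 4 groups overlapped with another, and its group means spanned 19.2-fold. Ctgf rose in UH vs UN cells by 2.57 on the log2 scale (SE 0.11, adjusted p = 1.95e-08), or 5.96-fold by mean TPM. In sorted cells exposed to the same oxygen level it was slightly lower, not higher (-0.26, 95% CI -0.49 to -0.03, adjusted p = 0.0733). The hypoxic changes before and after sorting thus differed by -2.83 (SE 0.15, adjusted p = 1.61e-06). Ctgf was also lower in sorted than in unsorted cells, by -1.42 in SN vs UN (adjusted p = 2.00e-06) and by -4.25 in SH vs UH cells (adjusted p = 3.53e-10).

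Fibroblast markers also differed between these groups. Of the 11 that could be tested, 4 rose (Col1a1, Col1a2, Col3a1 and Tagln) and 3 fell (Dcn, Pdgfra and Pdgfrb) in UH vs UN cells, where 5.46% of all genes rose and 11.8% fell. In UN cells Dcn was 349, 86.2 and 81.3 TPM and Pdgfrb 74.6, 31.1 and 28.4 TPM, both highest in replicate 1. Their UH means were 53.8 and 15.2 TPM. Pdgfra was lowest in UN replicate 1 (80.4 TPM, against 168 and 176 TPM). Calls of these markers were not tested without UN replicate 1, so those of Dcn and Pdgfrb may rest on that library. In SN vs UN cells 0 rose and 7 fell (3.2% and 7.57% of all genes), and in SH vs UH cells 0 rose and 8 fell (7.65% and 5.35%). Not all were low in SN cells. Dcn was 116, 116 and 126 TPM and Pdgfrb 43.3, 40.3 and 47.7 TPM there, above UN replicates 2 and 3. In SN vs UH cells 2 markers rose and 7 fell (12.3% and 9.17% of all genes). In SH vs SN cells 1 rose and 3 fell (7.47% and 5%), and the marker sum was 68.1 ± 8.22 TPM in SH against 210.0 ± 6.87 TPM in SN cells. The part of these markers in the Ctgf values was not tested. Within UN cells, replicate 1 had 5461 TPM of these markers in sum, which is in the range of the UH libraries (5240.5 to 7552 TPM). The make-up of that sum differed, with Col1a1 at 1186 TPM in UN replicate 1 and 2478 to 3556 TPM in UH cells. Acta2 was 845 TPM against 284 to 327 TPM, and Dcn 349 TPM against 49.9 to 61.0 TPM. Ctgf was 209.7 TPM in UN replicate 1 and 1063 TPM in the lowest UH library. Without UN replicate 1 the call in UH vs UN cells held, and over all single omissions its log2 fold change was 2.52 to 2.65.

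**Figure D3:**
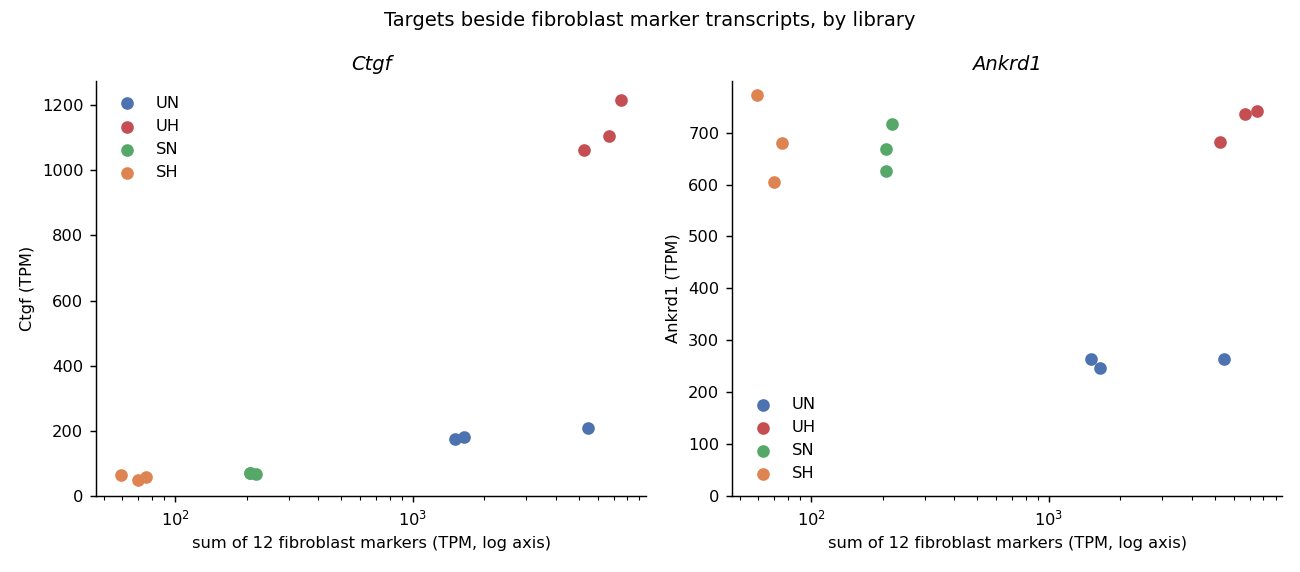
TPM of Ctgf (left) and Ankrd1 (right) against the sum of 12 fibroblast markers in the same library (log axis), colored by group. UN replicate 1 lies at 5461 TPM of markers and at 209.7 TPM of Ctgf, while the sorted libraries, at 59.1 to 218 TPM of markers, held between 605 and 773 TPM of Ankrd1. UN replicate 1 and the UH libraries had sums of like size that were made up of different markers.

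Ankrd1 (ENSMUSG00000024803, chr19:36111961-36120099, minus strand), a nuclear and sarcomeric ankyrin repeat protein first known from heart muscle, followed another course. It was 265, 246 and 264 TPM in UN, 683, 741 and 737 TPM in UH, 668, 626 and 718 TPM in SN and 605, 679.5 and 773 TPM in SH cells. UN libraries were far below all others, and UH, SN and SH libraries overlapped. Ankrd1 rose by 1.48 in UH vs UN (SE 0.10, adjusted p = 6.02e-07), by 1.37 in SN vs UN (SE 0.10, adjusted p = 1.60e-06) and by 1.40 in SH vs UN cells (adjusted p = 6.26e-07). Re-exposure to hypoxia gave a difference of 0.03 (95% CI -0.19 to 0.25, adjusted p = 0.873). Between unsorted and sorted cells the hypoxic change differed by -1.45 (SE 0.14, adjusted p = 7.85e-05). Thus the high level first seen after 2 days of hypoxia was also present in sorted cells that had spent about 10 days in normoxia, whereas that of Ctgf was not. The ratio of Ctgf to Ankrd1 was 0.73 ± 0.06 (SD, n = 3) in UN, 1.57 ± 0.07 in UH, 0.10 ± 0.01 in SN and 0.09 ± 0.002 in SH cells.

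Cyr61 (ENSMUSG00000028195, chr3:145646976-145649981, minus strand), the CCN family relative of Ctgf and a matrix protein that binds integrins, was 366, 415 and 445 TPM in UN, 523, 551 and 573 TPM in UH, 303, 277 and 316 TPM in SN and 421, 449 and 338 TPM in SH cells. In each setting all hypoxic libraries were above all normoxic ones, and at each oxygen level all sorted libraries were below all unsorted ones. The hypoxic difference was 0.43 in unsorted (SE 0.12, adjusted p = 0.0101) and 0.42 in sorted cells (SE 0.12, adjusted p = 0.0130), or 1.34-fold and 1.35-fold by mean TPM, and the difference between the responses was -0.01 (95% CI -0.37 to 0.35). The difference with sorting was -0.45 in normoxia (adjusted p = 0.0113) and -0.46 in hypoxia (adjusted p = 0.00841). All 4 values passed the adjusted p and none reached 2-fold.

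Amotl2 (ENSMUSG00000032531, chr9:102716672-102733418, plus strand), a junctional protein that binds YAP and holds it outside the nucleus and is also a YAP target, was 207, 250.3 and 209 TPM in UN, 194, 293 and 304 TPM in UH, 250.4, 173 and 162 TPM in SN and 245, 262 and 187 TPM in SH cells. The libraries of any 2 groups overlapped. The log2 fold change was 0.22 (95% CI -0.23 to 0.67) in UH vs UN and 0.26 (95% CI -0.19 to 0.71) in SH vs SN cells, so that a 2-fold change lay outside both intervals. Of these 4 targets, which are often scored as a group, Ctgf and Ankrd1 were each called in several comparisons and Cyr61 and Amotl2 in none. With median-of-ratios scaling Cyr61 was called in SN vs UH cells (-1.11, adjusted p = 2.87e-06, against -0.88 as deposited). The share of Ctgf in their summed TPM was 17.6% ± 2.14 (SD, n = 3) in UN, 42.4% ± 1.54 in UH, 5.68% ± 0.33 in SN and 4.25% ± 0.52 in SH cells.

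Set against all genes, the number of these 10 that were called (adjusted p under 0.05 and fold above 2) was as follows. In UH vs UN cells 3 of 10 were called (Ctgf and Ankrd1 higher, Tead2 lower), where 17.2% of all genes tested were (5.46% higher and 11.8% lower). In SH vs SN cells 1 of 10 was called (Tead2 lower), with 12.5% of all genes (7.47% higher and 5% lower). In SN vs UN cells 2 of 10 were called (Ankrd1 higher and Ctgf lower), with 10.8% of all genes (3.2% higher and 7.57% lower). In SH vs UH cells 1 of 10 was called (Ctgf lower), with 13% of all genes (7.65% higher and 5.35% lower). With 10 genes each call weighs 10%, and these shares are read as near the background.

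Across both steps, 3 of 10 were called in SH vs UN cells (Ankrd1 higher, Ctgf and Tead2 lower), with 20.3% of all genes (8.97% higher and 11.3% lower), and 3 of 10 in SN vs UH cells (Tead1 at 1.00 and Tead2 at 1.498 higher, Ctgf at -3.99 lower), with 21.4% of all genes (12.3% higher and 9.17% lower). The Tead1 call was lost with median-of-ratios scaling (0.78), with quantile normalization (0.71) and without UH replicate 1 or SN replicate 1 (0.67 and 0.94). By the interaction term, the hypoxic change was unequal before and after sorting for 3 of 10 (Ctgf, Ankrd1 and Tead3), with 10.3% of all genes (8.08% higher and 2.18% lower). With quantile normalization Tead3 was under the limit and Tead4 was called in its place (-1.06, adjusted p = 0.00501). All of these comparisons share groups and are not independent of each other.

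The median log2 fold change of the 10 genes was 0.08 in UH vs UN cells, against -0.19 for all genes tested, and -0.21 in SH vs SN cells, against 0.03. In SN vs UN cells it was -0.15, against -0.06, and in SH vs UH cells -0.14, against 0.17. Since the median of all genes moved by -0.19 in UH vs UN cells and by 0.25 in the difference between responses, small changes there depend on scaling. With median-of-ratios scaling Yap1 in UH vs UN cells became 0.01 and Tead3 0.29, while the calls of Ctgf, Ankrd1 and Tead2 held. The number of the 10 whose libraries did not overlap was 4 for UH vs UN and 7 for SH vs SN cells, where 51.1% and 56.8% of all genes did not overlap. It was 7 in SN vs UN (49% of all genes) and 3 in SH vs UH cells (51.7%), and 5 each in SH vs UN and SN vs UH cells (59.4% in both).

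**Figure D4:**
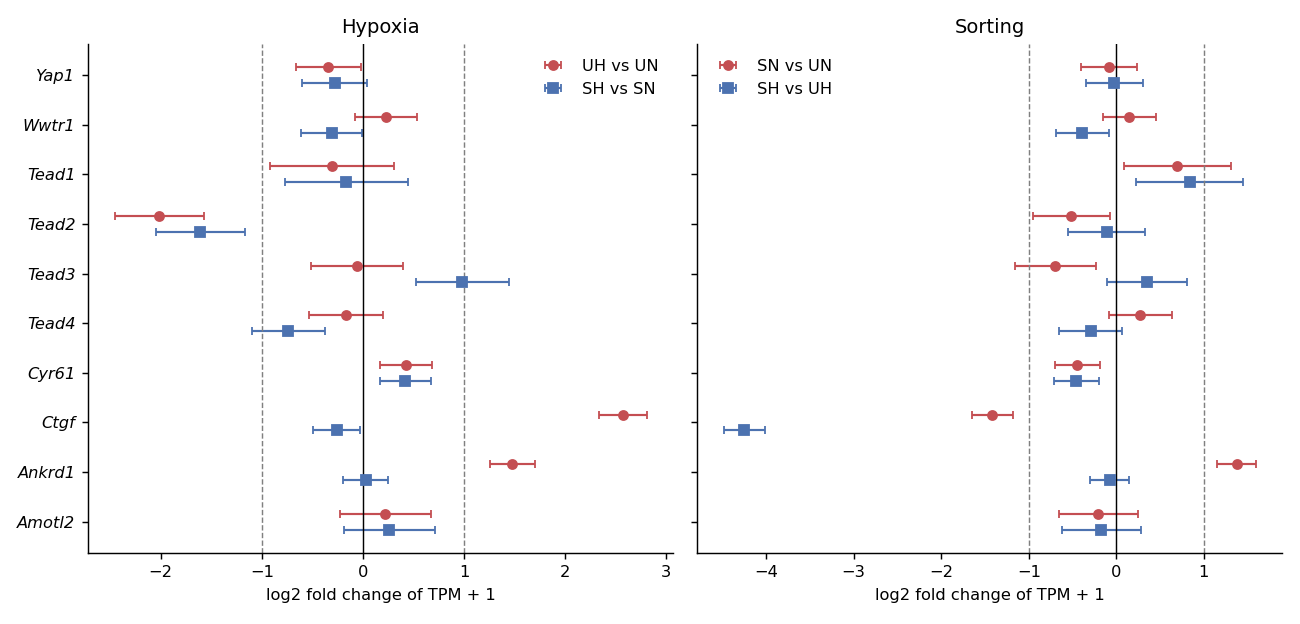
Log2 fold change of TPM + 1 with its 95% CI for each gene, for hypoxia in unsorted (UH vs UN) and sorted cells (SH vs SN) on the left and for sorting in normoxia (SN vs UN) and hypoxia (SH vs UH) on the right. Dashed lines mark a 2-fold difference, and the widest gap between paired symbols is that of Ctgf, at 2.57 and -0.26 on the left and at -1.42 and -4.25 on the right.

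Genes that act upstream of YAP and TAZ were then listed (27 Hippo pathway genes, all of them tested). In UH vs UN cells 1 rose and 1 fell (5.46% and 11.8% of all genes), with a list median of -0.27 against -0.19 for all genes. With median-of-ratios scaling Sav1 (1.02) and Ajuba (1.01) were also called higher there. In SH vs SN cells 1 rose and 1 fell (7.47% and 5% of all genes), with a median of -0.05 against 0.03. In SN vs UN cells 0 rose and 1 fell (3.2% and 7.57%), and in SH vs UH cells 1 rose and 2 fell (7.65% and 5.35%). Rassf1, a scaffold that activates the STK3 and STK4 kinases, rose in both settings. It was 48.2, 39.4 and 35.0 TPM in UN and 147, 142 and 134 TPM in UH cells (1.77, adjusted p = 6.44e-06), and 31.8, 33.1 and 28.9 TPM in SN and 129.9, 133 and 83.6 TPM in SH cells (1.82, adjusted p = 8.85e-06). Every hypoxic library was thus above every normoxic one.

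Of 3 cadherins at the top of the pathway, Dchs1 and Fat1 were called in some comparisons and Fat4, with group means of 6.16 to 8.43 TPM, in none. Dchs1, the ligand of the FAT4 receptor, was 4.07, 9.03 and 10.4 TPM in UN, 1.09, 1.65 and 1.95 TPM in UH and 0.0285 to 0.153 TPM in the sorted libraries, and it fell in UH vs UN (-1.72), SN vs UN (-3.01) and SH vs UH cells (-1.17). Fat1, an atypical cadherin, was 54.0, 60.8 and 76.2 TPM in UN, 20.9, 40.4 and 35.7 TPM in UH and 64.7 to 80.5 TPM in sorted cells, and it was higher in SH than in UH cells (1.29, adjusted p = 4.12e-04). Its fold in UH vs UN cells was -0.99 (adjusted p = 0.00195), at the edge of the limit. Amot, the relative of Amotl2, fell in SH vs SN cells, from 14.4, 12.8 and 12.6 TPM to 4.58, 4.42 and 2.86 TPM (-1.54, adjusted p = 2.93e-04).

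The core kinases and Nf2, named here for their place in the pathway after their values were seen, were called in neither hypoxia comparison. In UH vs UN cells the log2 fold change was -0.72 for Stk3 (adjusted p = 9.31e-04), -0.27 for Stk4, 0.34 for Lats1 and 0.61 for Lats2 (adjusted p = 0.0153), and that of Nf2, the upstream activator merlin, was -0.80 (adjusted p = 0.00137). In SH vs SN cells these 5 genes were between -0.33 and 0.01. Lats2, a kinase that is also induced by YAP, was 19.8, 29.6 and 34.1 TPM in UH and 12.01, 13.6 and 13.1 TPM in SH cells. This gave -1.02 in SH vs UH cells (adjusted p = 8.14e-04), which was under the 2-fold limit without UH replicate 2, UH replicate 3 or SH replicate 1 (-0.86 to -0.97).

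Cofactors of the VGLL family compete with YAP and TAZ for TEAD factors. Of 4 listed, Vgll3 and Vgll4 could be tested, and Vgll1 and Vgll2 were at or below 0.389 TPM in every library. Vgll3 was 31.4, 21.8 and 21.9 TPM in UN and 35.8, 46.3 and 62.2 TPM in UH cells, but 42.4, 49.9 and 42.9 TPM in SN and 24.9, 18.3 and 27.4 TPM in SH cells. It was higher in each UH than in each UN library and lower in each SH than in each SN library. Neither step reached 2-fold (0.90, adjusted p = 0.00419, and -0.92, adjusted p = 0.00438), and the responses differed from each other (-1.82, SE 0.30, adjusted p = 0.00177). Vgll4 was 32.5, 56.3 and 57.7 TPM in UN, 22.0, 28.7 and 31.2 TPM in UH, 39.9, 35.0 and 48.4 TPM in SN and 39.1, 39.8 and 49.2 TPM in SH cells. All UH libraries were below all UN libraries (-0.78, adjusted p = 0.0106, under the 2-fold limit), and the SH and SN libraries overlapped (0.06, adjusted p = 0.873).

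A wider list of YAP and TAZ targets held 18 further genes, all tested. In UH vs UN cells 2 rose and 3 fell (5.46% and 11.8% of all genes), with a list median of -0.16 against -0.19 for all genes. This balance depended on scaling. With median-of-ratios scaling and quantile normalization, Arhgef17 was under the limit (-0.70 and -0.73) and Gadd45a was called higher (1.16 and 1.03). In SH vs SN cells 1 rose and 2 fell (7.47% and 5%), with a median of -0.12 against 0.03. In SN vs UN cells 0 rose and 4 fell (3.2% and 7.57%), with a median of -0.03 against -0.06. Without UN replicate 1, Ccdc80 was called higher in SN vs UN cells (1.58, adjusted p = 1.52e-06). In SH vs UH cells 0 rose and 5 fell (7.65% and 5.35%), with a median of 0.04 against 0.17. As deposited, 10 genes of this list were called in none of these 4 comparisons. The list was drawn from textbook targets with earlier results of these data known.

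Igfbp3, which binds insulin-like growth factors, rose with hypoxia in both settings. It was 67.5, 179 and 169.6 TPM in UN and 506, 559 and 594 TPM in UH cells (2.11, adjusted p = 9.51e-05), and 14.2, 13.2 and 17.6 TPM in SN and 154, 159 and 163 TPM in SH cells (3.33, adjusted p = 5.44e-06). No hypoxic library overlapped with its normoxic group, and each sorted group was below its unsorted counterpart. Fjx1, a Golgi kinase that acts on Fat and Dachsous cadherins, fell in both settings, by 1.96 in UH vs UN and by 1.05 in SH vs SN cells. The latter was under the 2-fold limit without SH replicate 2 (-0.93).

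Dock5, an activator of Rac, was high in UH cells. It was 2.67, 1.66 and 1.93 TPM in UN, 6.17, 10.6 and 12.1 TPM in UH, 2.76, 2.65 and 2.65 TPM in SN and 3.62, 3.45 and 2.36 TPM in SH cells. All UH libraries stood above all others (1.75, adjusted p = 6.89e-05), and the SH vs SN value was 0.15 (adjusted p = 0.643). The responses differed by -1.60 (adjusted p = 0.00540), which made Dock5 the only gene of this list called in that contrast. Other settings changed this count, to 6 without UN replicate 1 and to 4 with a pseudocount of 0.1. Igfbp3, at 1.22 (adjusted p = 0.0508), was called in that contrast with quantile normalization, with a filter of 1 TPM and with the replicate block.

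Arhgef17 and Rbms3 were low in sorted cells. Arhgef17 was 45.8, 64.7 and 66.3 TPM in UN, 21.02, 30.9 and 32.3 TPM in UH, 5.27, 6.01 and 5.42 TPM in SN and 3.08, 2.55 and 1.77 TPM in SH cells (-3.17 for SN vs UN, -3.06 for SH vs UH). Rbms3, an RNA-binding protein, was 9.19, 12.03 and 13.6 TPM in UN and 5.57, 9.36 and 14.1 TPM in UH cells, and was between 1.69 and 2.43 TPM in sorted cells (-2.02 and -1.84). Tgfb2, a growth factor, was 59.4, 145 and 159 TPM in UN and between 20.4 and 40.8 TPM in the other groups. Its lowest UN value was that of replicate 1. Ccdc80, a secreted matrix protein, had its highest value in that library, with 143 TPM against 40.4 and 37.5 TPM, and fell in SH vs SN cells (-1.34, adjusted p = 0.0141).

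**Figure D5:**
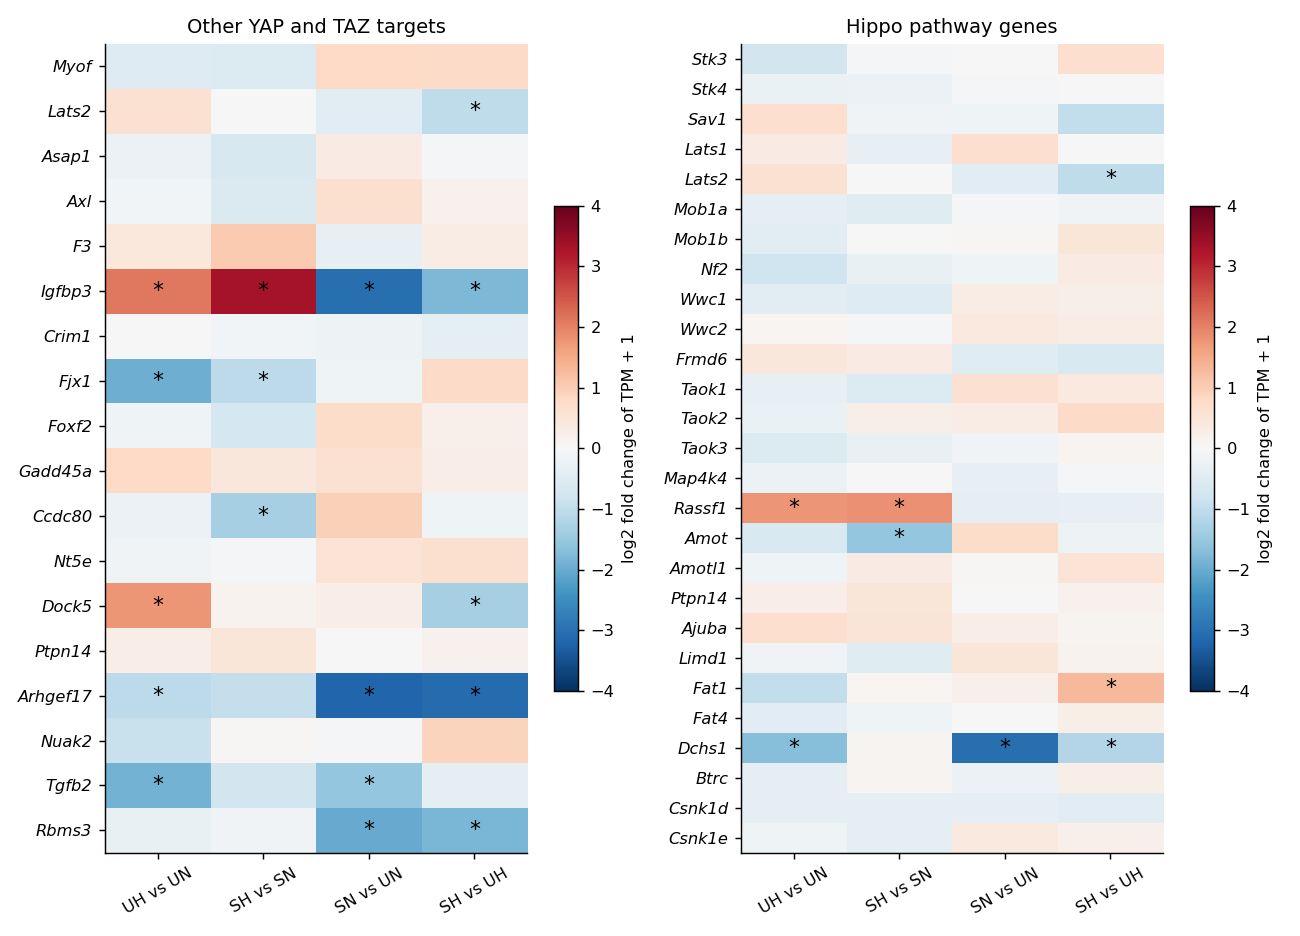
Log2 fold change of TPM + 1 for 18 other targets (left) and 27 Hippo pathway genes (right) in 4 comparisons, from blue (lower) to red (higher), with an asterisk where a gene was called. Lats2 and Ptpn14 are in both lists. Most cells are pale, Igfbp3 and Rassf1 are red in both hypoxia columns, and Arhgef17, Igfbp3, Rbms3 and Dchs1 are blue in the column for sorting in normoxia.

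Finally, the genes whose profiles over the 12 libraries lay nearest to those of 4 members were found, as the root mean square difference of log2(TPM + 1) after each gene was centered on its own mean. Those nearest to Ctgf were Cryab (0.24), a small heat shock protein, Dok5 (0.28), a docking protein, and Fbln5 (0.36), an elastic fiber protein. Cryab had group means of 78.4, 589.7, 41.7 and 32.1 TPM in UN, UH, SN and SH cells. Dok5 (1.56, 12.8, 0 and 0.02 TPM) and Fbln5 (2.87, 11.6, 0 and 0 TPM) were at the floor in sorted cells, where their distance from Ctgf depends on the pseudocount. Those nearest to Cyr61 were RP24-223I19.6, Mlh3 and Frmd6 (0.10 to 0.11), the last of which is on the Hippo list, with group means of 34.3, 47.3, 23.98 and 30.6 TPM. RP24-223I19.6 and Mlh3 were low, with group means of at most 2.09 and 1.25 TPM. Genes with a nearly flat course lay nearest to Yap1 (Tceb3, Uhrf2 and Hs2st1, 0.08 each) and to Wwtr1 (Fbxl17, Mon1b and Actr8, 0.10 to 0.11). These are descriptions of 12 libraries that share cells and culture conditions.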

How the data were processed

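Total RNA from BN1-Tie2-EGFP monolayers was sequenced by the authors (stranded poly(A) libraries, paired ends), processed with nf-core/rnaseq 3.12.0 and deposited as TPM per gene from Salmon. Per the labels, the build is mm10, and the annotation release is not given in the sources used here. Groups were taken from the labels, and the study calls its replicates independent. Here, log2(TPM + 1) was fitted for the 18909 genes whose mean over the libraries reached 0.1 TPM, with limma 3.58.1 (R 4.3.3, 4 group means, all 12 libraries, moderation with a trend). Calls needed a fold above 2 and p under 0.05 after Benjamini-Hochberg adjustment over all genes. The pseudocount understates the change of low genes. With 3 libraries against 3, an exact permutation test cannot go below p = 0.1, so none is quoted. Data were also simulated with a log2 change of 2 in 200 genes, each with a mean log2(TPM + 1) above 2. Of these genes 197 were recovered, with 3 false calls. The simulation held no change near the 2-fold limit or in lower genes, so it does not measure recovery there. Coordinates are from GENCODE M21 (GRCm38), and promoters are from RefSeq. The genes and lists were chosen with earlier results of these data known. Named genes were the 10 members, the called genes with the largest changes in each list (up to 4 per direction and comparison), defining markers, Cdkn2a, and the 3 nearest profiles of Yap1, Wwtr1, Ctgf and Cyr61. Alternatives were a pseudocount of 0.1, 2 other filters, 4 other scalings, a replicate block, moderation without a trend, fits of the compared groups alone, adjusted p alone and omission of each replicate. Python 3.11.15, pandas 2.3.3 and matplotlib 3.10.9 were used for tables and figures. A further gene examined with the additional targets is not reported here.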

Additional observations from a re-analysis of the deposited data

Results flagged for a closer look

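In 3 of the 10 genes, the response to hypoxia differed between sorted and unsorted cells by the test of the difference itself (limma, 3 libraries in each of 4 groups). Of all genes tested 10.3% were called in this contrast (8.08% higher and 2.18% lower). For Ctgf the difference was -2.83 on the log2 scale (2.57 in unsorted and -0.26 in sorted cells), and it was between -2.92 and -2.73 when each library was omitted in turn. For Ankrd1 it was -1.45 (1.48 in unsorted and 0.03 in sorted cells), and between -1.54 and -1.36 over the same omissions. For Tead3 it was 1.04 (-0.06 in unsorted and 0.98 in sorted cells), and this call was lost in 5 of 12 omissions. It was also lost with median-of-ratios scaling (0.71) and with quantile normalization (0.88). Their levels in the SN group, where the sorted response starts, were unlike those in UN cells for each of the 3 genes (70.0, 671 and 36.3 TPM in SN against 189, 258 and 59.1 TPM in UN cells for Ctgf, Ankrd1 and Tead3).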

How the results depend on the processing

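The calls of Ctgf, Ankrd1 and Tead2 in UH vs UN cells, of Tead2 in SH vs SN cells, and of Ctgf and Ankrd1 in SN vs UN cells held under each scaling, filter and single omission tried. The number of the 10 genes called in SH vs SN cells was 1, and it was 3 with a pseudocount of 0.1 (Tead3 1.00 and Tead4 -1.17 added), 3 with quantile normalization (1.11 and -1.06), 2 when the 20 highest genes were left out of the scaling, 4 by adjusted p alone and 1 to 2 when a replicate was omitted (2 without SN replicate 2, SN replicate 3 or SH replicate 3). By adjusted p alone 4 were called in SN vs UN, 4 in SH vs UH and 6 in SN vs UH cells. Omissions gave 1 to 2 in SH vs UH cells, where Tead1 was added without UH replicate 3 (1.14). Replicate numbers did not pair the samples (mean correlation of deviations -0.0274 to 0.0509), and a replicate block left the number of members called at 3, 1, 2, 1, 3, 3 and 3 in UH vs UN, SH vs SN, SN vs UN, SH vs UH, SH vs UN, SN vs UH and the difference between responses. With the block, 3 other targets rather than 1 were called in the last of these. Scaling decides the balance of all genes in UH vs UN cells, with 1032 higher and 2222 lower as deposited, 1564 and 1221 with median-of-ratios scaling, and 1445 and 1343 with quantile normalization.

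Values that changed sign were small and uncalled. In UH vs UN cells, median-of-ratios scaling gave 0.0099 for Yap1, 0.035 for Tead1, 0.29 for Tead3 and 0.045 for Tead4, and quantile normalization gave 0.026 for Tead1, 0.23 for Tead3 and 0.00067 for Tead4. Median-of-ratios scaling gave 0.035 for Yap1 in SN vs UN cells and 0.11 for Cyr61 in SH vs UN cells. Quantile normalization gave 0.049 for Ankrd1 in SH vs UH cells, 0.20 for Cyr61 in SH vs UN cells and 0.0059 for Ankrd1 in SN vs UH cells. Leaving the 20 highest genes out of the scaling gave 0.011 for Yap1 in SH vs UH and 0.029 for Cyr61 in SH vs UN cells, and leaving out mitochondrially encoded genes gave -0.044 for Ankrd1 in SH vs SN and 0.010 for Wwtr1 in SN vs UH cells. For the difference between responses, median-of-ratios scaling gave -0.28 for Yap1, -0.18 for Tead1 and -0.30 for Amotl2, and quantile normalization gave -0.011 for Yap1, -0.073 for Tead1 and 0.12 for Cyr61. Omitting single replicates gave -0.61 to 0.023 for Tead1 and -0.17 to 0.14 for Tead3 in UH vs UN cells, -0.063 to 0.11 for Ankrd1 in SH vs SN cells, -0.18 to 0.13 for Yap1, -0.28 to 0.037 for Tead2 and -0.17 to 0.010 for Ankrd1 in SH vs UH cells, -0.11 to 0.093 for Cyr61 and -0.045 to 0.20 for Amotl2 in SH vs UN cells, and -0.22 to 0.072 for Wwtr1 in SN vs UH cells. For the difference between responses these ranges were -0.10 to 0.21 for Yap1, -0.19 to 0.44 for Tead1, -0.092 to 0.11 for Cyr61 and -0.17 to 0.23 for Amotl2. The cause of these changes was not tested.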

Other observations

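The other members of the CCN family, to which Ctgf and Cyr61 belong, were read after the values above were seen. Nov was 37.4, 30.6 and 30.9 TPM in UN, 10.9, 12.1 and 12.7 TPM in UH, 0.418, 0.477 and 0.706 TPM in SN and 0.364, 0.176 and 0.329 TPM in SH cells. It was lower in UH vs UN (-1.39, adjusted p = 1.32e-05) and in SN vs UN cells (-4.47, adjusted p = 2.55e-09), so that with hypoxia in unsorted cells Nov fell while Ctgf rose. Wisp2 was 308, 185 and 164 TPM in UN, 155, 158 and 153 TPM in UH and between 6.42 and 12.7 TPM in sorted cells (-4.74 in SN vs UN, adjusted p = 8.60e-09). Wisp1 was called in none of the comparisons, and Wisp3 was too low to be tested.

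Among further genes often tied to YAP and also chosen after their values were seen, Ccnd1, which encodes cyclin D1, fell in both hypoxia comparisons (-2.28 in UH vs UN cells, adjusted p = 1.03e-06, and -2.00 in SH vs SN cells, adjusted p = 4.52e-06). It was higher in SN than in UN cells (1.49, adjusted p = 4.72e-05). Birc5, the survivin gene, fell by 2.08 in UH vs UN cells, and in SH vs SN cells its value was -0.69, a difference between responses of 1.39 (adjusted p = 1.69e-04). Thbs1 and Edn1 were lower in SN than in UN cells (-1.49 and -1.34). Areg was 0.675, 4.91 and 6.41 TPM in UN and 0.394, 0.382 and 0.859 TPM in SN cells, and these groups overlapped through UN replicate 1.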
